A study of Mus musculus with 3 samples.

Results

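Among 38722 cell barcodes from inflamed mouse knee synovium, 51 carried a high share of the RNAs for the serine proteases and peroxidase of primary granules while carrying little RNA for the granule proteins made later. They were chosen from raw UMI counts (a UMI is 1 captured RNA molecule) as the barcodes in which Mpo, Elane, Prtn3 and Ctsg together made up at least 0.3% of all UMIs and Ngp, Camp and Ltf together under 1%. The working name for such cells is granulocyte-monocyte progenitors; since Kit and Flt3, receptors of blood stem and progenitor cells, were seen in 11 and 1 of the 51, they are called here by the genes of their rule, primary-granule cells. Replicate 1 held 10 of them, replicate 2 held 41 and replicate 3 held 0.

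Granulocyte-monocyte progenitors are dividing cells of the bone marrow that give rise to neutrophils and monocytes. On the way to a neutrophil, such a cell passes through the promyelocyte stage, in which it makes the contents of primary (azurophil) granules: myeloperoxidase (Mpo), neutrophil elastase (Elane), proteinase 3 (Prtn3) and cathepsin G (Ctsg). Transcription of these genes then ceases, and the later myelocyte and metamyelocyte make the secondary and tertiary granule proteins, such as lactoferrin (Ltf), cathelicidin (Camp) and neutrophilic granule protein (Ngp). The transcription factor Irf8 is known to favour the monocyte path, and Gfi1 and Cebpe the granulocyte path. In an adult mouse these steps are known from the marrow rather than from the joint.

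The 150 bases before the start sites are shown for 3 of the 5 markers of these cells, those whose window held either of the motifs marked in capitals. Elane lies on the plus strand at chr10:79886162-79886311, Prtn3 on the plus strand at chr10:79879517-79879666 and Ms4a3 on the minus strand at chr19:11640852-11641001, from RefSeq on GRCm38.p6, and all 5 markers were matched. Capitals mark GAGGAA, a core that PU.1 and other ETS factors can bind, or TTNNGNAA, a form of the C/EBP site, both searched on both strands.
Elane: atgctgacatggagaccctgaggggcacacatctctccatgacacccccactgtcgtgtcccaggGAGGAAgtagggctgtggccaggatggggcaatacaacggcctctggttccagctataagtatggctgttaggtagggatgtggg
Prtn3: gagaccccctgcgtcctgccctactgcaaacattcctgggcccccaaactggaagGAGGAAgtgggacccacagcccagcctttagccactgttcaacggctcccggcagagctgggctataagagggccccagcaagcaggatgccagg
Ms4a3: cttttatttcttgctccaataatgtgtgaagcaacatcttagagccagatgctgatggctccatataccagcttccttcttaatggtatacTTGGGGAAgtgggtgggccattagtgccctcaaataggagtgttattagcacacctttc
In both Elane and Prtn3 the GAGGAA was in the forward direction, at -85 to -80 and -95 to -90 from the start. Windows of the same length before 32851 start sites held GAGGAA in 14.5% and TTNNGNAA in 22.7%. The windows of Mpo (chr11:87793634-87793783, plus strand) and Ctsg (chr14:56102575-56102724, minus strand) held neither. The letters AACNG, a core of the MYB site found in 55.1% of the windows, stood in those of Elane, Prtn3 and Ctsg, and TGNGGT, a core of the RUNX site found in 26.0%, stood in that of Ctsg. A match is a description of the letters and no evidence of binding.

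The cells came from 8-week-old female C57BL/6 mice with arthritis induced by type II collagen (100 µg on day 0), a cocktail of antibodies against that collagen (1 mg on day 21) and lipopolysaccharide (LPS, day 22), taken in the effector phase. All 3 libraries belonged to this 1 group, and the knee synovium of 2 mice was pooled in each, 6 mice in all, so no untreated joint is there to compare with. The tissue was dissociated with collagenase and DNase, and droplets were made with the DNBelab C kit. The comparisons below are therefore between classes of cells within libraries. Their p-values set the class difference against its variation between 2 pools of mice. That leaves 1 residual degree of freedom, so the p-values rest largely on a spread shared over genes.

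The libraries held 11561 to 15242 barcodes after filtering, with a median of 4742 to 5282 UMIs. Barcodes are listed by running number rather than by base sequence, so barcodes shared between libraries could not be counted. Replicate 2 stood apart in its granule genes. There, Mpo, Elane, Prtn3 and Ctsg summed to 335 CPM (UMIs scaled to a library total of 1e+06) over all barcodes, against 58.8 in replicate 1 and 9.97 in replicate 3. Detection in collagen-rich fibroblasts, used here as a measure of free RNA, was highest in replicate 2 too. There Prtn3 was seen in 16.6% of them (median depth 13824 UMIs), against 6.53% in replicate 1 (12096.5 UMIs) and 3.37% in replicate 3 (9669 UMIs). Elane was seen in 16.3%, 1.86% and 0.0654% of them in replicates 2, 1 and 3. The source of these UMIs was not tested.

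The named markers were present in most of the cells. The rule chose cells on Mpo, Elane, Prtn3 and Ctsg together, so the choice itself favours their presence. Prtn3 was seen in 51 of 51, Elane in 49, Mpo in 47, Ctsg in 43 and Ms4a3, a membrane protein of granulocyte and monocyte progenitors that the rule did not use, in 37. All 5 were seen in 34 cells and at least 3 in 47, counts that also rest on genes of the rule. Of these markers, only Ms4a3 had no part in choosing the cells. Markers of stem and progenitor cells were seen in fewer of the cells. Kit, the stem cell factor receptor, was seen in 11 cells (30.0% of replicate 1 and 19.5% of replicate 2, against 0.621% to 1.98% of fibroblasts). Flt3, a receptor of early progenitors, was seen in 1 cell, or 1.96%, against 0.779% to 1.48% of fibroblasts. Cd34 was seen in 14 cells. At 44.8 and 28.2 CPM in replicates 1 and 2 it rested on 9 and 22 UMIs. Of these 31 UMIs, 13 were in 2 cells that also held 9 of the 20 Kit UMIs. Fibroblasts make Cd34 themselves (59.3, 71.7 and 66.8 CPM), so its share in them gives no level of free RNA.

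The cells were large in RNA content. Their median was 14950 UMIs in replicate 1 and 20527 in replicate 2, where immature neutrophils had medians of 6701 and 6454 and monocytes of 7821 and 7877.5. A single cell of 57425 UMIs gave 28.6% of the summed UMIs of replicate 1. The highest cell gave 6.00% in replicate 2. A mitochondrial share of 4% or more was found in 10 of the 51 cells. A doublet score of 0.2 or more was found in 2 cells, both of replicate 2.

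At the edge of the rule, the lowest cell inside had a primary granule share of 0.311% and the highest barcode outside 0.299%. There were 4 cells inside from 0.3% to 0.4% and 14 barcodes outside from 0.2% to 0.3%, of which 1, 8 and 5 were in replicates 1, 2 and 3. Prtn3 made up 77.8% of the primary granule UMIs of those 14 barcodes and 33.1% in the 51 cells. The fewest UMIs of the 4 genes in a chosen cell was 8, and 7 cells had under 20, against a median of 187. The highest share of Ngp, Camp and Ltf in a chosen cell was 0.743%.

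Primary-granule cells were 0.0839% of the barcodes of replicate 1 (exact 95% binomial interval 0.0402% to 0.154%) and 0.355% of those of replicate 2 (0.255% to 0.481%). In replicate 3, 0 of 15242 were found (0% to 0.0242%). The mean was 0.146% ± 0.185 (SD, n = 3). The intervals cover counting error only and do not overlap between the libraries. The cells that follow in the granule order varied in the same sense. Barcodes with both gene sets, at least 0.3% primary and at least 1% secondary, numbered 1, 32 and 0. Immature neutrophils, with at least 1% secondary and under 0.3% primary, numbered 153, 573 and 82. As a part of all barcodes with either granule set, primary-granule cells were 6.10% of 164 in replicate 1 (2.96% to 10.9%) and 6.35% of 646 in replicate 2 (4.59% to 8.51%), overlapping intervals. In replicate 3 they were 0 of 82 (0% to 4.40%), an interval that overlaps that of replicate 1 but not that of replicate 2. Monocytes, which carry Ly6c2, Ccr2 and Csf1r, did not follow this order: they were 4.20%, 3.60% and 3.40%.

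**Figure D1:**
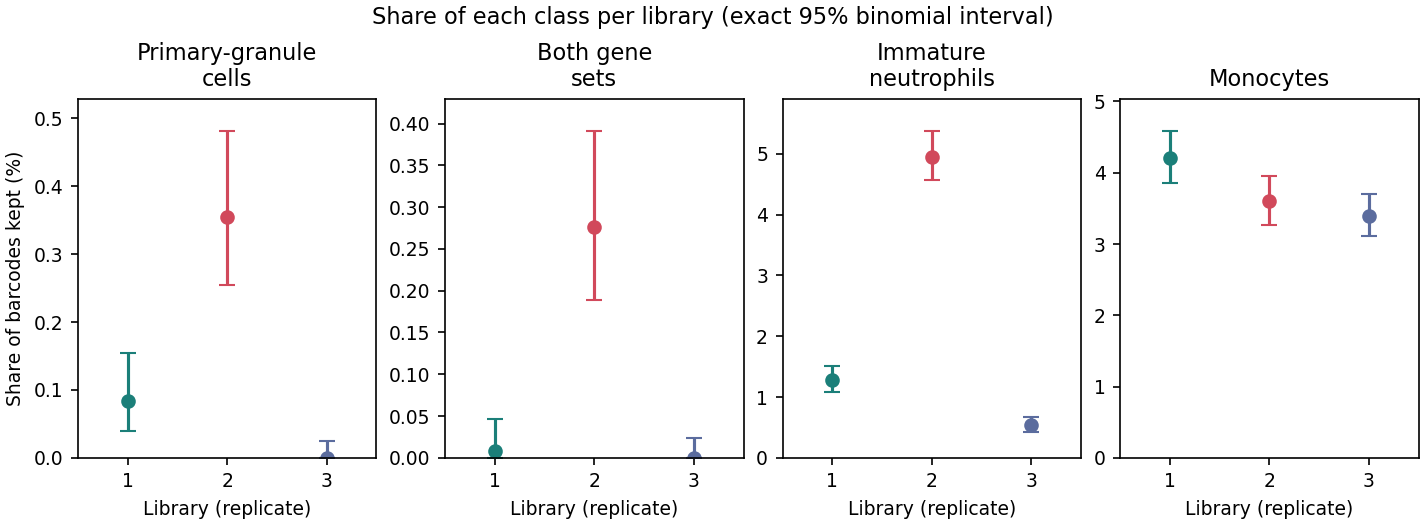
Share of the kept barcodes, in percent, that fell in each class in each library (points, with exact 95% binomial intervals). Each class has its own vertical axis. Replicate 2 was highest for primary-granule cells (0.355%), for cells with both gene sets and for immature neutrophils, while monocytes lay between 3.40% and 4.20%.

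The 4 genes of the rule and Ms4a3 are given as levels. The rule chose on the first 4, so no test is given for them. Elane stood at 7188 and 8786 CPM in the primary-granule cells of replicates 1 and 2, Prtn3 at 7402 and 8308, Mpo at 4488 and 5519 and Ctsg at 2924 and 2597. In cells with both sets in replicate 2, Elane and Prtn3 were still at 6877 and 6096 CPM, while Mpo was at 1974 and Ctsg at 428. Immature neutrophils of replicate 2 held 31.7 CPM of Elane and 3.07 of Ctsg, next to 11.8 and 1.61 in the fibroblasts of that library.

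The 51 cells were of at least 2 kinds by the regulators seen in them. Irf8 without Gfi1 or Cebpe was seen in 17 cells (2 in replicate 1, 15 in replicate 2), and Gfi1 or Cebpe without Irf8 in 22 (6 and 16). Both were seen in 4 cells and neither in 8, whose median depth was 3398.5 UMIs. For comparison, Irf8 was seen in 12.5% to 13.7% of fibroblasts, Gfi1 in 0.0654% to 0.416% and Cebpe in 0.779% to 2.79%. These groups were cut from the same UMIs after the values were seen, so what follows is a description with no test.

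The primary granule genes went with Gfi1 and Cebpe. The 22 cells with Gfi1 or Cebpe had a median primary granule share of 3.76% (0.620% to 7.69%), and 19 of them lay at 1.5% or above. The 17 cells with Irf8 had a median of 0.549% (0.330% to 1.14%), and none lay at 1.5% or above. The median depths of the groups, 20658.5 and 24544 UMIs, were close. Seen over all 51 cells, 23 lay at 1.5% or more and 28 below, with no cell between 1.18% and 1.69%. Of the 23, 22 held Gfi1 or Cebpe and 3 held Irf8; of the 28, 4 held Gfi1 or Cebpe and 18 held Irf8.

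Most genes of the monocyte path were higher in the Irf8 cells. The 14 genes of that list, Irf8 among them, summed to 5878 and 7669 CPM in the Irf8 cells of replicates 1 and 2. They summed to 3077 and 2342 CPM in the Gfi1 or Cebpe cells. Fn1 and Tgfbi went the other way in replicate 1, and Cx3cr1 in replicate 2. Ly6c2 was high in both kinds, at 2433 and 3460 against 1688 and 1791 CPM. Irf8, F13a1 (a coagulation factor chain of monocytes), Ly86 (a partner of a Toll-like receptor homologue) and Ccr2 (the monocyte chemokine receptor) were summed. Their median sum was 0.142% of UMIs in the Irf8 cells and 0.00187% in the Gfi1 or Cebpe cells. Irf8 takes part in this sum and in the cut between the groups, so part of the gap is fixed by the cut. Klf4, a factor of monocyte differentiation, was at 350.3 and 244 CPM in the Irf8 cells of replicates 1 and 2 and at 0 and 0 in the Gfi1 or Cebpe cells. F13a1 was at 584 and 781 against 100.0 and 31.2 CPM. In the other direction, Ms4a3 was at 292 and 135 CPM in the Irf8 cells and 1355 and 1311 in the Gfi1 or Cebpe cells, where 21 of 22 held it against 10 of 17. Prss57, a serine protease of primary granules, was at 58.4 and 9.89 against 333 and 352 CPM, and Fcnb, ficolin-B, at 19.5 and 52.7 against 578 and 778. S100a8, a calcium-binding protein of neutrophils and monocytes, was at 2063 and 4304 against 26268 and 22869 CPM. Ctsc, also of the primary granule list, was instead higher in the Irf8 cells, at 487 and 508 against 255 and 34.1 CPM. In both libraries, Klf4, F13a1, Ms4a3, Prss57, Fcnb, S100a8 and Ctsc each differed in the same direction. Myb, a factor of immature blood cells, was at 0 and 16.5 against 66.6 and 102 CPM. Mki67, a marker of dividing cells, was at 448 and 290.0 CPM in the Irf8 cells and 111 and 145 in the Gfi1 or Cebpe cells, so it was seen in both kinds.

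**Figure D2:**
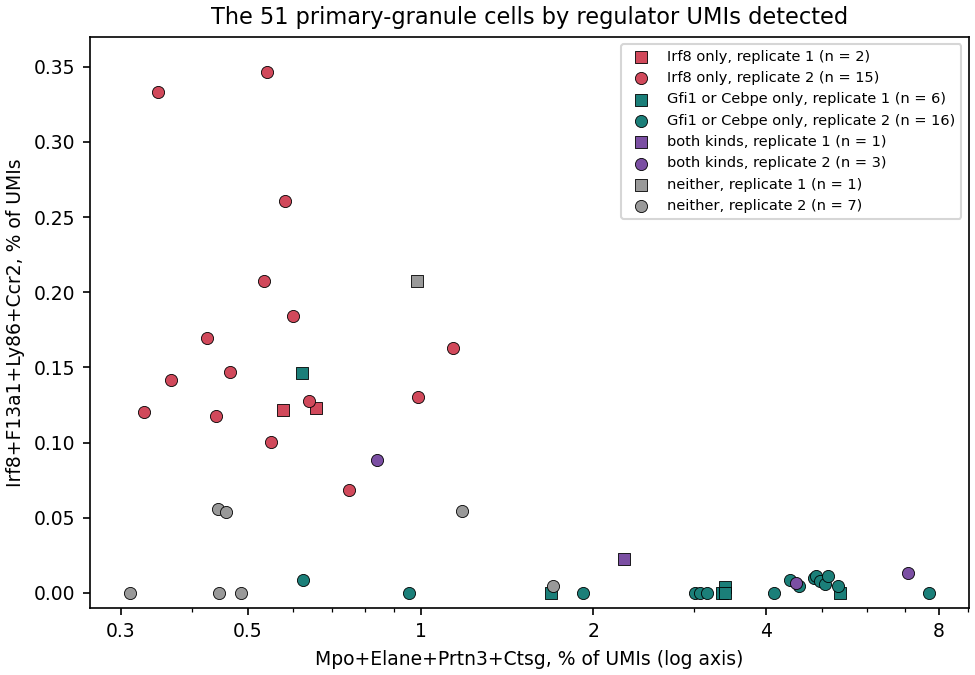
Each point is 1 of the 51 primary-granule cells, with the share of UMIs from Mpo, Elane, Prtn3 and Ctsg on a log axis against the share from Irf8, F13a1, Ly86 and Ccr2. Squares are replicate 1 and circles replicate 2, and colours give the regulators seen. Irf8 takes part in both the colour and the vertical axis. Irf8 cells sit at 0.330% to 1.14% on the horizontal axis, and 19 of the 22 Gfi1 or Cebpe cells sit at 1.5% or above.

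The first comparison set primary-granule cells against immature neutrophils, the next clear stage of the granulocyte path. The 17 Irf8 cells are part of the primary-granule sums, so the differences mix kind of cell with stage. Primary-granule cells were higher in genes of replication such as Mcm3 (log2 fold change 2.90 ± 0.27), of ribosome building such as Ncl (2.12 ± 0.20) and of their own granule stage such as Ms4a3 (4.29 ± 0.26). They were lower in later granule proteins such as Lcn2 (-4.80 ± 0.25) and in inflammatory genes such as Il1b (-2.35 ± 0.24; all SE, 2 libraries). UMIs were summed per library and class and tested with edgeR's quasi-likelihood test with the library as a block; calls needed a log2 fold change of at least 1 in size and a p under 0.05 after Benjamini-Hochberg adjustment. Only replicates 1 and 2 held both classes, with 10 and 41 primary-granule cells. Outside the rule's own genes, 2919 of 8056 genes tested were called (36.2%), 1435 higher in primary-granule cells (17.8%) and 1484 lower (18.4%), and 2861 of these went the same way in both libraries. Counts of list members below are to be read against those shares. Scaling mattered here, since S100a8 alone was at 110191, 102076 and 98106 CPM in immature neutrophils and S100a9 at 120344, 117825 and 109215. With library totals alone in place of TMM scaling, 2655 were higher and 732 lower, and the median gene moved from -0.00 to 0.55 on the log2 scale. Values are those with TMM, so a ratio of CPM levels can exceed the fitted fold change.

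Of 12 other genes of the primary granule and its stage, 6 rose and 0 fell, with a median log2 fold change of 1.26. These share a stage with the genes by which the classes were cut, so the choice itself favours a rise. Ms4a3 stood at 996 and 806 CPM in replicates 1 and 2 and at 20.5, 38.3 and 17.8 in the immature neutrophils of replicates 1, 2 and 3. The groups did not overlap, and the log2 fold change was 4.29 ± 0.26 (SE, adjusted p = 5.92e-09, edgeR). Prss57 was at 179 and 203 against 9.44, 11.9 and 2.54 CPM (3.58 ± 0.27, adjusted p = 5.88e-08, edgeR). Cst7, an inhibitor of lysosomal cathepsins, was at 149 and 122 against 0.787, 1.02 and 0 CPM. Its fitted log2 fold change of 6.40 ± 0.42 rests on 6 UMIs in the immature neutrophils of replicates 1 and 2. Fcnb was at 269 and 447 against 92.1, 250.2 and 71.1 CPM and was not called (0.56 ± 0.22). It was called higher with library totals alone (1.12), without replicate 2 (1.15) and with a primary share of at least 1% required (1.39). In cells with both sets Fcnb reached 2102 CPM.

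Regulators of the granulocyte path showed a split. Gfi1, a repressor needed for neutrophil development, was higher, at 44.8 and 55.2 against 2.36, 6.96 and 5.08 CPM (2.66 ± 0.42, adjusted p = 1.12e-04, edgeR). Cebpa, the factor of early granulocyte commitment, was the other of 2 called among 7 tested. It was at 49.8 and 59.0 against 11.8, 14.9 and 15.2 CPM (1.45 ± 0.35). Cebpe, a factor of the secondary granule stage, was at 144 and 144 against 119.6, 208 and 139.7 CPM, overlapping levels that were not called (-0.78 ± 0.24). The value was -0.23 with library totals alone, but Cebpe was called lower with high doublet scores left out (-1.06) and with cells thinned to at most 5000 UMIs (-1.21). It was highest in cells with both sets, at 424 CPM. Irf8 was higher in primary-granule cells, at 115 and 136 against 24.4, 13.9 and 20.3 CPM (2.37 ± 0.29, adjusted p = 9.77e-06, edgeR). Cells with a primary share under 1% held 124 of its 129 UMIs: with a primary share of at least 1% required, the log2 fold change was -1.27 and not called.

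Later granule proteins were lower, as was most of the mature neutrophil list. Of 10 other secondary and tertiary granule genes 9 fell, with a median of -3.95; these share a stage with the genes that defined the immature neutrophils. Lcn2, lipocalin-2, was at 727 and 548 CPM against 11031, 12792 and 13939 (-4.80 ± 0.25, adjusted p = 9.81e-10, edgeR). Cd177, a neutrophil surface protein, was at 105 and 59.0 against 1605, 1824 and 2492 CPM (-5.10 ± 0.27). Chil3, a chitinase-like protein, was at 149 and 691 against 1663, 2742 and 1524 CPM (-3.10 ± 0.28); of the 2 primary-granule sums, that of replicate 2 was much the higher. Of 12 mature neutrophil genes, 11 fell. Retnlg, resistin-like gamma, was at 84.7 and 159 CPM, at or below the 229, 249 and 122 of fibroblasts, against 10759.7, 5168 and 10455 in immature neutrophils. S100a8 was at 12557 and 14101 against 110191, 102076 and 98106 CPM (-3.54 ± 0.27, adjusted p = 7.98e-08, edgeR), and at 1797, 2210.2 and 1210.2 in fibroblasts. The primary-granule sums were thus above background. By kind of cell, it was at 2063 and 4304 CPM in the Irf8 cells and 26268 and 22869 in the Gfi1 or Cebpe cells. Csf3r, the receptor for granulocyte colony-stimulating factor, was at 139 and 168 against 319, 276 and 297 CPM (-1.45 ± 0.22; -0.90 with library totals alone, where it was not called).

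Outside the lists, the largest falls were in Ly6g (the neutrophil surface antigen; -6.93 ± 0.40), Ifitm6 (-6.00 ± 0.30), Fpr2 (a formyl peptide receptor; -5.49 ± 0.30), St3gal5 (a ganglioside sialyltransferase; -4.72 ± 0.34) and Chil1 (-4.56 ± 0.38). Ly6g was at 9.96 and 2.57 CPM against 375, 351 and 412, from 2 UMIs in each primary-granule sum. The largest rises were in Phgdh, the first enzyme of serine synthesis (5.37 ± 0.39), Gstm1, a glutathione transferase (4.22 ± 0.25), Dmkn (3.96 ± 0.27), Fkbp4, a co-chaperone of Hsp90 (2.69 ± 0.26) and Lyar (2.64 ± 0.27). Phgdh was at 125 and 128 CPM in replicates 1 and 2 and at 0.787, 2.46 and 2.54 in immature neutrophils. Gstm1 was at 413 and 503 against 18.1, 16.6 and 5.08 CPM.

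**Figure D3:**
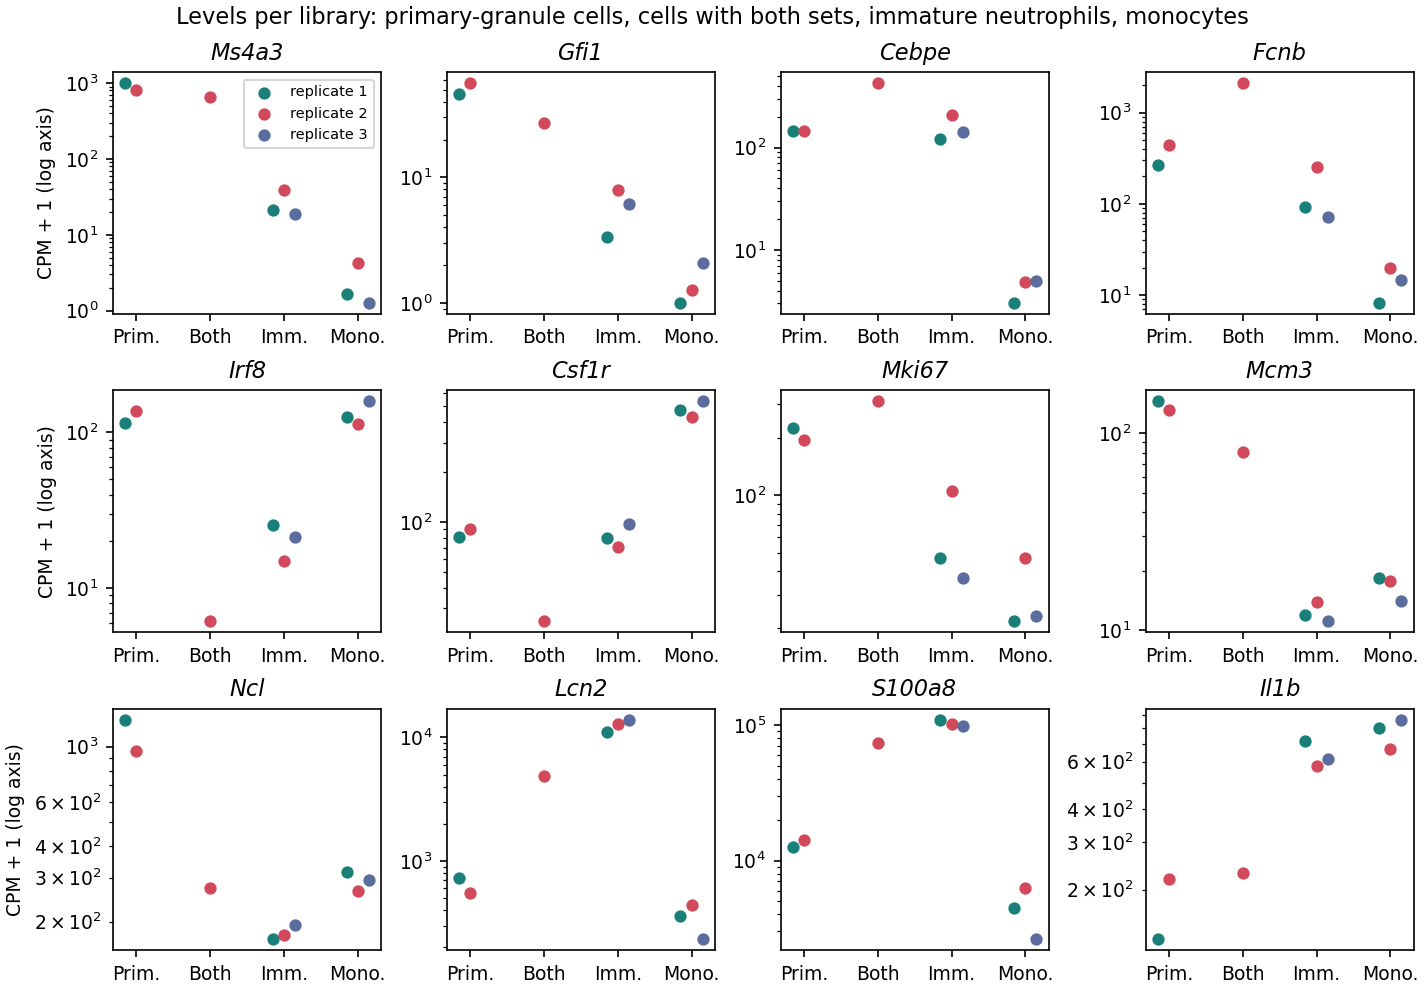
Levels of 12 genes, as CPM + 1 on log axes, in primary-granule cells (Prim.), cells with both gene sets (Both, replicate 2 only), immature neutrophils (Imm.) and monocytes (Mono.); each point is the sum of 1 library's cells. Ms4a3 and Gfi1 were highest in primary-granule cells, Cebpe and Fcnb in cells with both sets, and Lcn2 and S100a8 in immature neutrophils.

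Cell division genes were higher in primary-granule cells in both comparisons. Against immature neutrophils, 14 of 14 S-phase genes tested rose (median 2.20) and 10 of 15 genes of G2 and mitosis (median 1.21). Mcm3, a subunit of the replicative helicase, was at 144 and 131 CPM against 11.0, 12.9 and 10.2 (2.90 ± 0.27, adjusted p = 7.83e-07, edgeR). Top2a, a topoisomerase of dividing cells, was at 329 and 237 against 26.0, 82.0 and 40.7 CPM (1.77 ± 0.34), and Aurkb, a mitotic kinase, at 64.8 and 41.1 against 5.51, 10.4 and 5.08 (1.86 ± 0.42). Mki67 was at 224 and 195 against 45.6, 104 and 35.6 CPM without overlap, yet was not called at 0.88 ± 0.28. It was called with library totals alone (1.43), without the block (1.06), with thinned cells (1.11) and without replicate 2 (1.88).

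Depth could set the share of cells in which such genes are seen, so each cell was thinned to 1000 UMIs, which left out no cell. Mki67 or Top2a was then seen in 40.0% of the primary-granule cells of replicate 1 (4 of 10) and 22.0% of replicate 2 (9 of 41), down from 100% and 92.7% unthinned. The thinned share was 40.6% in the cells with both sets of replicate 2 (13 of 32), 5.88%, 9.08% and 7.32% in the immature neutrophils of replicates 1, 2 and 3, and 2.00%, 5.05% and 2.51% in monocytes. In neutrophils with at least 0.3% Retnlg, which do not divide, it was 2.30%, 2.15% and 1.73% (median depths 2332, 2515 and 1844 UMIs). Any S-phase gene was seen in 50% and 73.2% of primary-granule cells, and in 9.37% to 10.7% of those Retnlg neutrophils. In replicate 2 the exact interval for Mki67 or Top2a in primary-granule cells, 10.6% to 37.6%, overlapped that of immature neutrophils, 6.85% to 11.7%.

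Genes for making ribosomes were also higher. All 10 tested of the MYC and ribosome biogenesis list rose against immature neutrophils (median 2.35). Ncl, nucleolin, was at 1280.1 and 957 CPM against 169, 176 and 193 (2.12 ± 0.20), and Dkc1, an enzyme of ribosomal RNA modification, at 115 and 75.7 against 7.08, 9.41 and 5.08 (2.75 ± 0.35). Myc itself was at 64.8 and 43.6 against 11.0, 5.52 and 0 CPM (2.26 ± 0.39). Of 14 genes for folding proteins in the endoplasmic reticulum 6 rose, 8 were not called and the median was 0.96. Sdf2l1, a chaperone component there, was at 264 and 276 against 28.3, 26.2 and 40.7 CPM (2.78 ± 0.24, adjusted p = 2.83e-07, edgeR). Ncl was already down to 272 CPM in cells with both sets, where Mki67 was at 310.4.

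Genes of inflammation and of the oxidative burst were lower. Of 13 tested inflammatory mediators 10 fell (median -2.15), as did 8 of 11 of the LPS and NF-kB list and 5 of 7 interferon-stimulated genes. Il1b, interleukin-1 beta, was at 129.5 and 218 CPM against 713, 576 and 615 (-2.35 ± 0.24, adjusted p = 1.55e-06, edgeR). Fibroblasts held 243, 213 and 261 CPM, so Il1b in primary-granule cells was at or under background. Ccl4, a chemokine, was at 29.9 and 44.9 against 263, 138 and 262 CPM (-2.62 ± 0.30) and Cd14, the LPS co-receptor, at 34.9 and 64.2 against 355, 231 and 465 (-2.84 ± 0.29). Rsad2, an interferon-stimulated gene, was lower on 1 and 2 UMIs (-2.71 ± 0.70; not called without replicate 2, at -2.18). Of 6 NADPH oxidase genes 5 fell; Cybb, its catalytic subunit, was at 109.6 and 148 against 508, 612 and 485 CPM (-2.66 ± 0.22), above the 30.7, 21.8 and 27.3 of fibroblasts. Slc2a3, a glucose transporter, was the larger of 2 falls among 12 genes of glycolysis and hypoxia (-4.06 ± 0.31). Of 7 MHC class II genes 3 fell, H2-Ab1 the most (-1.38 ± 0.20); it was not called with library totals alone (-0.83) or with high doublet scores left out (-0.80). In the dissociation list 7 of 10 fell, Egr1 the most (-2.06 ± 0.25), while the heat shock protein Hsp90aa1 rose (2.65 ± 0.21), from 80.3, 96.2 and 68.6 CPM to 907 and 751.

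The second comparison set the same primary-granule sums against monocytes, barcodes with at least 0.05% Ly6c2, a UMI of Ccr2 and of Csf1r and none of Cd3d or Cd3e. Primary-granule cells were higher in the granulocyte factor Cebpe (log2 fold change 5.53 ± 0.34) and in dividing-cell genes such as Rrm2 (3.94 ± 0.27), and lower in the antigen presentation gene Cd74 (-3.21 ± 0.12) and in Ctss (-2.99 ± 0.14; all SE, 2 libraries). The 2 comparisons share the primary-granule cells and are not independent. Of 10245 genes tested, 2377 were called (23.2%), 1140 higher (11.1%) and 1237 lower (12.1%), and 2358 went the same way in both libraries. The count was lower without replicate 2, in a fit on a lone primary-granule sum.

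Of 11 monocyte genes that the rules did not use, 8 fell and 0 rose (median -1.77). Monocytes were chosen on Ly6c2, Ccr2 and Csf1r, genes of the same path, so the choice itself favours a fall. Ctss, the cathepsin of antigen processing, was at 359 and 343 CPM against 2914, 2508 and 3303 in the monocytes of replicates 1, 2 and 3 (-2.99 ± 0.14, adjusted p = 2.01e-18, edgeR). Irf8 was at 115 and 136 against 124, 113 and 157 CPM, overlapping levels (0.09 ± 0.21); with a primary share of at least 1% required, it was -3.67 and called lower. Klf4 was at 94.6 and 107 against 183, 133 and 192 CPM and F13a1 at 234 and 341 against 339.9, 532 and 372, neither called (-0.58 ± 0.21 and -0.65 ± 0.17). Those sums average unlike cells. In the Irf8 cells of replicates 1 and 2, Klf4 was at 350.3 and 244 CPM and F13a1 at 584 and 781, above the monocytes. In the Gfi1 or Cebpe cells Klf4 was at 0 and 0 and F13a1 at 100.0 and 31.2. All 8 MHC class II genes fell (median -2.94). Cd74, the invariant chain, was at 618 and 489 against 5815, 4199 and 6224 CPM (-3.21 ± 0.12), and Ciita, the master regulator of the class, at 0 and 3.85 against 45.7, 41.2 and 45.2 (-3.80 ± 0.59). Lyz2, lysozyme, was at 1958 and 2010.0 against 10360.1, 10428 and 10406 CPM (-2.44 ± 0.10).

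Inflammatory genes were lower than in monocytes too. Of 15 mediators 11 fell (median -1.81), of 12 genes of the LPS and NF-kB list 10, and of 11 interferon-stimulated genes 8. Ccl6, a chemokine, was at 59.8 and 65.5 against 524, 494 and 419.7 CPM (-3.02 ± 0.21), Tlr2 at 24.9 and 18.0 against 176, 134 and 212 (-2.91 ± 0.29) and Ifi27l2a at 54.8 and 39.8 against 512, 514 and 454 (-3.58 ± 0.22). Il1b was at 804, 670.4 and 861 CPM in monocytes (-2.02 ± 0.19). In the dissociation list 9 of 12 fell, Hspa1a the most (-2.44 ± 0.61), and Hsp90aa1 rose (2.60 ± 0.16). Hspa1a rested on 1 and 3 UMIs in primary-granule cells, and was not called with DESeq2 (-2.53), with a primary share of at least 1% (-1.64) or with thinned cells (-2.47). Of genes outside the lists, Arg1 (arginase; -4.64 ± 0.35), Apoc2 (-4.60 ± 0.27), Cxcl9 (a chemokine induced by interferon-gamma; -4.27 ± 0.34), Slc15a3 (-3.86 ± 0.38) and Ms4a4c (-3.74 ± 0.27) fell most.

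Against monocytes, of 12 further primary granule genes 7 rose and 1 fell. The fall was in Ctsc, the protease that activates the granule proteases (-1.56 ± 0.16, at 304 and 258 against 878, 726 and 1073 CPM). Here too the choice of cells by genes of the same stage favours a rise. Ms4a3 was at 0.679, 3.27 and 0.267 CPM in monocytes, Prss57 at 0, 1.64 and 0.535, Gfi1 at 0, 0.273 and 1.07 and Myb at 0.453, 0.818 and 0.267, from 0 to 12 UMIs a library, so levels rather than folds are given. In primary-granule cells Myb was at 94.6 and 74.4 CPM. Cebpe was at 144 and 144 against 2.04, 3.82 and 4.01 CPM (5.53 ± 0.34, adjusted p = 4.28e-15, edgeR) and Fcnb at 269 and 447 against 7.25, 18.8 and 13.6 (4.75 ± 0.22). Of 7 granulocyte regulators 2 rose and 0 fell. Of 12 mature neutrophil genes 1 rose and 4 fell (median -0.62), and of 10 other secondary and tertiary granule genes 1 rose and 3 fell (median 0.13). S100a8 was higher by 1.28 ± 0.09, at 4481, 6224 and 2619.9 CPM in monocytes, and Retnlg was lower, at 84.7 and 159 against 699, 741 and 363 CPM (-2.51 ± 0.19). Lcn2 did not reach the fold required (0.59 ± 0.16) but was called higher without replicate 2 (1.15) and with high doublet scores left out (1.01). Chil3 was lower (-1.40 ± 0.22), and not called without replicate 1 (-0.53) or with DESeq2 (-1.72). Of 6 NADPH oxidase genes, 1 rose, Rac2 (1.02 ± 0.16), and 2 fell, Cybb the most (-1.69 ± 0.19). Rac2 was under the fold required with DESeq2 (0.99), without a filter (0.88) and with thinned cells (0.76).

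Against monocytes all 15 S-phase genes (median 2.94) and all 15 genes of G2 and mitosis (median 2.74) rose, as did all 10 tested of the MYC and ribosome biogenesis list (median 1.89). Rrm2, a subunit of ribonucleotide reductase, was at 179 and 160.4 against 8.83, 12.0 and 4.01 CPM (3.94 ± 0.27, adjusted p = 5.32e-14, edgeR). Cdk1, the mitotic kinase, was at 149 and 108 against 8.60, 14.7 and 8.56 CPM (3.31 ± 0.30), Mki67 at 224 and 195 against 20.8, 45.5 and 22.2 (2.55 ± 0.24) and Top2a at 329 and 237 against 20.6, 41.7 and 17.4 (3.07 ± 0.23). Of 14 genes of the endoplasmic reticulum 3 rose, Creld2 the most (1.60 ± 0.25; 0.80 and not called without replicate 2). The largest rises outside the lists were Phgdh (5.25 ± 0.34), Hist1h1b (3.87 ± 0.23), Lig1 (a DNA ligase of replication; 3.70 ± 0.27), Plk1 (a mitotic kinase; 3.60 ± 0.32) and Hist1h2ae (3.51 ± 0.24). Histone genes of 1 cluster are near-identical in sequence, and how their reads were shared out is not given in the sources used here.

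The 15 stem and progenitor genes summed to 837 and 660 CPM in primary-granule cells, against 271, 331 and 277 in immature neutrophils and 328, 372 and 437 in monocytes. Against monocytes 7 of 13 tested rose and 1 fell, and against immature neutrophils 2 of 9 rose and 1 fell. Kit was at 44.8 and 14.1 CPM against 1.36, 1.64 and 0.267 in monocytes (3.99 ± 0.64) and 7.87, 6.14 and 0 in immature neutrophils, where it was not called (1.15 ± 0.48). Against immature neutrophils Kit was called higher with library totals alone (1.70) and with a primary share of at least 1% (1.75). Without replicate 2 its value was 2.42, on a lone primary-granule sum. Of the 9 Kit UMIs of replicate 1, 6 were in the cell of 57425 UMIs. Cdk6, a kinase of the G1 phase found in progenitors, was at 374 and 237 CPM, 23.6, 26.0 and 20.3 in immature neutrophils (2.94 ± 0.25) and 44.6, 33.0 and 50.6 in monocytes (2.89 ± 0.19). Cd34 was not called in either (-0.21 ± 0.35 and 0.57 ± 0.39). Mcpt8, a protease of basophils and their precursors, was at 19.9 and 42.4 CPM against 0 to 0.273 in immature neutrophils and monocytes. A single cell of replicate 2 held 27 of its 37 UMIs, and the rest lay in 7 cells, 3 of them in replicate 1.

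Of 12 haematopoietic cytokine receptors, 1 rose and 3 fell against immature neutrophils, and 0 rose and 6 fell against monocytes. Ifngr1 rose against immature neutrophils (1.02 ± 0.24) and Csf2rb2 fell (-1.94 ± 0.60), the latter on 0 and 7 UMIs. Ifngr1 was not called with DESeq2 (1.02), without replicate 1 (0.87) or with thinned cells (0.53), nor Csf2rb2 with library totals alone (-1.39), with DESeq2 (-2.46) or without replicate 1 (-1.55). Il10ra fell most against monocytes (-2.46 ± 0.34). Csf1r, the macrophage colony-stimulating factor receptor, was at 79.7 and 89.8 CPM and 78.7, 70.0 and 96.5 in immature neutrophils (-0.30 ± 0.25); monocytes, chosen partly on it, held 477, 432 and 535. Csf3r was at 135, 169.9 and 153 CPM in monocytes (-0.04 ± 0.19). Of 11 homing molecules, 1 rose and 5 fell in each comparison. Cxcr4, the receptor that holds immature cells in the marrow, was at 94.6 and 78.3 CPM, 77.1, 74.5 and 63.5 in immature neutrophils (-0.40 ± 0.25) and 71.3, 45.5 and 53.5 in monocytes (0.60 ± 0.24), and was called in neither. Itgam, an integrin chain of neutrophil adhesion, was at 84.7 and 98.8 against 551, 506 and 772 CPM (-3.03 ± 0.23), and Ccr1, a chemokine receptor, fell against monocytes (-2.67 ± 0.32). Spn, the sialoglycoprotein CD43, rose in both (1.45 ± 0.26 and 2.94 ± 0.29). Of 14 genes of the monocyte list, 5 rose and 1 fell against immature neutrophils (median 0.31). Among all genes tested there, 17.8% rose and 18.4% fell. The fall was in Fn1, fibronectin (-1.11 ± 0.21), at 199 and 244 CPM, under the 1695, 1598 and 1782 of fibroblasts. Fn1 was not called with library totals alone (-0.55), without replicate 1 (-0.96), with high doublet scores left out (-0.90) or with thinned cells (-0.65).

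**Figure D4:**
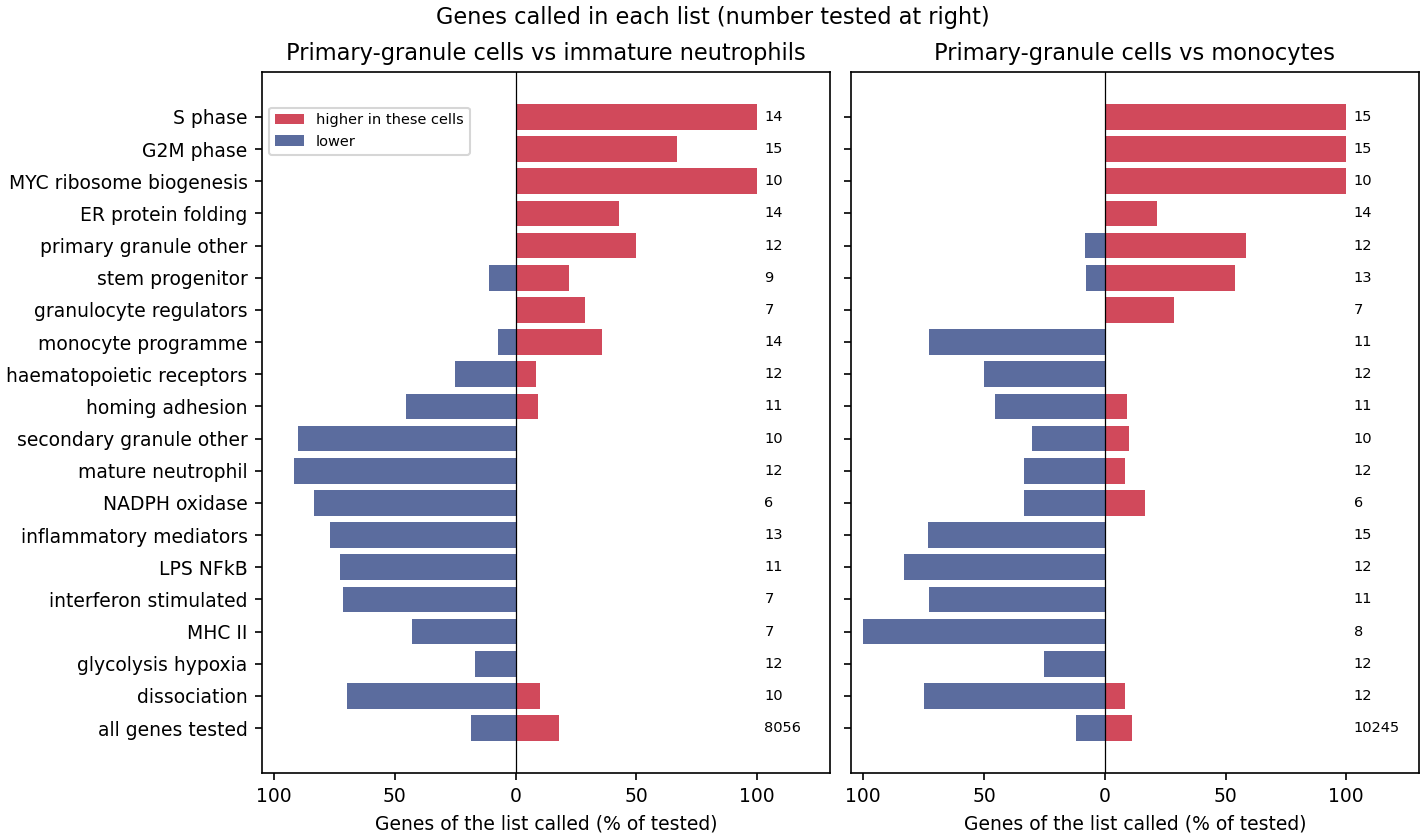
Percentage of tested genes of each list called higher (right of 0) or lower (left of 0) in primary-granule cells, against immature neutrophils and against monocytes; the number tested stands at the right, and the lowest bar covers all genes tested. The S-phase and ribosome biogenesis lists were called higher in full in both comparisons, against 17.8% and 11.1% of all genes.

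Markers of other cells were looked for, since marrow or blood cells could come with the tissue. Haemoglobin and other erythroid genes summed to 59.8 CPM in the primary-granule cells of replicate 1 and 3142 in replicate 2. Of the 2443 haemoglobin UMIs in replicate 2, 2368 were in 1 cell of 11441 UMIs with a doublet score above 0.2. Over whole libraries the erythroid sum was 1192, 1736 and 679 CPM in replicates 1, 2 and 3, highest where primary-granule cells were most. The 7 genes of a list for pro-B cells, a cell of the marrow, summed to 125, 181 and 136 CPM over whole libraries. In primary-granule cells they summed to 9.96 and 18.0 CPM, and Ebf1 was the 1 of 7 seen. Such sums do not show which cells hold the genes, and whether pro-B cells were present was not tested. The 7 macrophage markers summed to 1609 and 638 CPM, against 5196, 4591 and 7223 in monocytes; of the 206 complement C1q UMIs in replicate 1, 179 were in its cell of 57425 UMIs. T cell markers were at 9.96 and 7.70 CPM. The 5 B cell markers summed to 19.9 and 16.7 CPM, against 1.57, 3.27 and 2.54 in immature neutrophils and 5.89, 7.64 and 11.5 in monocytes. Cd79b was the 1 of them seen in primary-granule cells, and was called higher in both comparisons (2.72 and 1.88). The part of marrow, blood or neighbouring cells in these results was not tested.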

How the data were processed

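The deposited values are whole UMI counts for each gene in each barcode, and the file headers name PISA 1.0 as their writer. Seurat 3.0.2, R 3.6 and GRCm39 are named in the submitters' processing notes. Which aligner and annotation were used is not given in the sources used here. The 3 libraries held 99782608 to 116125707 UMIs. Of 38804 barcodes, 38722 passed a minimum of 200 genes and a maximum of 20% mitochondrial UMIs. Scrublet (scanpy 1.11.5, expected rate 6%) scored doublets; none was removed for the main values.

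Sums of UMIs over the cells of a class in a library, each of 10 or more cells, were tested by the quasi-likelihood F-test of edgeR (version 4.0.16, run in R 4.3.3), two-sided, after filterByExpr and with TMM scaling, the library as a block and p-values adjusted (Benjamini-Hochberg) across every gene tested. The block reflects that the 2 sums of a library share their pooled mice. A call needed an adjusted p under 0.05 and a log2 fold change of at least 1 in size. The tests were planned on 3 libraries, but only 2 held primary-granule cells, which leaves 1 residual degree of freedom besides the spread shared over genes. The same script was tested on simulated data. CPM levels are of all UMIs of a class. Fibroblasts, used as a measure of free RNA, were barcodes with at least 3% Col1a1, Col1a2 and Col3a1.

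Cells were chosen from the UMIs that were then tested, so the 7 genes of the rule, and for monocytes Ly6c2, Ccr2, Csf1r, Cd3d and Cd3e, have no test. The members and gene lists were chosen with earlier results of these data known. The genes named were the most changed called gene of every list, upwards and downwards, provided both libraries showed that direction and the higher class reached 10 CPM; 5 genes outside the lists in each direction with at least 100 CPM; and a fixed set (Ms4a3, Prss57, Fcnb, Cebpe, Gfi1, Irf8, Cd34, Kit, Mki67, Top2a, Csf3r, Csf1r, Il1b, S100a8, Chil3, Lcn2 and Cxcr4). Cebpa, Klf4, F13a1, Cd74, Ncl, Myc and genes of the paragraph on the kinds of cell were added after their values were seen. Alternatives were no block, library totals alone, DESeq2 1.42.0, no filter, other rule limits, leaving out libraries or doublets, and, chosen after seeing the data, cells thinned to at most 5000 UMIs, fits without the block that leave out a library, and a minimum of 5 cells. Promoter sequences are from RefSeq.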

Additional observations from a re-analysis of the deposited data

How the results depend on the processing

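Only 2 libraries, with 10 and 41 cells, carry the comparisons, and 1 cell gave 28.6% of the replicate 1 sum. The mean share of 0.146% was 0.0716% to 0.183% under other limits of the rule and 0.0419% to 0.219% when 1 library was left out, the lowest without replicate 2; with an SD of 0.185 over 3 libraries it is loosely known. The count against immature neutrophils was 2919 and that against monocytes 2377. DESeq2 gave 1287 and 1091, and thinning cells to at most 5000 UMIs gave 1721 and 1099 of fewer genes tested. Leaving out 1 library gave 2112 to 2919 and 1216 to 2406, where the lone sum was assumed to vary like the other group; the lowest count against monocytes was without replicate 2. Without the replicate block the counts were 2898 and 2507, of which 2646 and 2224 were called in both fits. With a primary share of at least 1% and at least 5 cells per sum, Irf8 turned from 2.37 to -1.27 against immature neutrophils and from 0.09 to -3.67 against monocytes, where 17 of the 26 cells left out and 4 of those kept held Irf8. No other named gene changed direction where called. Of the planned fits, some were not run: leaving out replicate 1 or 2 with the block leaves no residual degrees of freedom, a primary share of 1% left 6 cells in replicate 1, and cells without Csf1r and Ccr2 numbered 3 and 13. Depth limits what can be said of Kit, Gfi1 and Mcpt8, with 9 or fewer UMIs each in replicate 1.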
